A study of Homo sapiens with 8 samples.

Results

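The regions described here carried a peak of H3K4me3 in at least 2 of 3 ZBTB48 knockout (KO) libraries and in none of 3 wild type (WT) libraries. They came from H3K4me3 ChIP-seq of U2OS, a human osteosarcoma line that keeps its telomeres without telomerase. Separate WT clones and separate ZBTB48 KO clones gave 3 libraries each, so each KO library was 1 clone. Every clone had been given 250 U/ml interferon gamma (IFNγ), for 24 h by the labels. No untreated library enters, and both genotypes share the cytokine. A figure legend of the study gives a longer treatment for tracks that include H3K4me3 ChIP-seq. The 2 WT inputs that complete the 8 samples were not analysed here. Promoter calls fitted a mesenchymal line in part, since 7 of 10 mesenchymal or osteoblast markers were called in all 6 libraries, COL1A2, TWIST1 and ALPL in none, and of 9 markers of other lineages EPCAM alone was called in all 6 while the other 8 were called in none.

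Trimethylation of histone H3 at lysine 4 is laid down by the SET1 and MLL complexes, mostly around the 5′ ends of active genes and over unmethylated CpG-rich DNA. ZBTB48, also known as TZAP, is a zinc finger protein that binds telomeric repeats and a small number of promoters, where it acts as an activator.

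The 6 peak lists were merged into 31195 regions on chromosomes 1 to 22, X and Y, with 1 bp of overlap by any of its peaks enough for a library to call a region. Of the merged regions, 438 (1.4%) were called in at least 2 KO libraries and no WT library, and are called KO-favouring below. They included 85 (0.272%) called in all 3 KO libraries and 353 called in 2. The members were chosen by the calls themselves, so their number and the absence of WT peaks are a description and were not tested. The mirror set, at least 2 WT and no KO library, held 617 regions (1.98%) and is called WT-favouring. A further 3142 regions (10.1%) were called in 2 or 3 libraries drawn from both genotypes and serve below as a set of similar strength that does not follow genotype. Just outside the rule, 555 regions were called in 2 KO libraries and 1 WT library, 300 in 3 KO libraries and 1 WT library, and 3405 in 1 KO library alone. The only WT call came from WT replicate 3 in 481 of those regions with a single WT call, from replicate 1 in 192 and from replicate 2 in 182. The number of members rests on single libraries. It was 916 without WT replicate 3, and 137, 254 and 214 without KO replicates 1, 2 and 3, where both remaining KO libraries had to call a region.

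The sequences of 2 satellite-like regions are given first. Short tandem repeats made up a larger share of KO-favouring than of WT-favouring regions, of those of both genotypes and of all regions. Regions called in 3 KO libraries and 1 WT library also held them, by the counts given further on. Each sequence is the central 300 bases of its region on the plus strand of GRCh38. Capitals mark every copy of the 5-base unit GGAAT or its reverse complement ATTCC.
chr4:49657503-49657802: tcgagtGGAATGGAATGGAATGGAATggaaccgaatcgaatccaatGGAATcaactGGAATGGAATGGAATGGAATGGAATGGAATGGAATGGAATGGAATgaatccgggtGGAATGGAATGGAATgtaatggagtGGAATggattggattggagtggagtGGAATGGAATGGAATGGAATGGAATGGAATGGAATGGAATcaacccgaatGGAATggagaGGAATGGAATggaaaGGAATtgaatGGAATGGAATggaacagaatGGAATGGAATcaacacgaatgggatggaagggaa
chr10:41858238-41858537: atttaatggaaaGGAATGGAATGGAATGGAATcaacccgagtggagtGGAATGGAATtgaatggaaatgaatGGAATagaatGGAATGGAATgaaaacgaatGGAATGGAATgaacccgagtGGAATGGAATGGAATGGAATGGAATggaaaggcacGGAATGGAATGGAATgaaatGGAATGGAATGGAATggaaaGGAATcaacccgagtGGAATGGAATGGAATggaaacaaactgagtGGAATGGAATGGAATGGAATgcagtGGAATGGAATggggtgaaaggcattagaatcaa

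These held 34 and 32 copies of the unit. The pentamer is the building block of classical human satellites, which sit beside centromeres and on the long arm of chromosome Y. Both lay in intergenic DNA beside a centromere. The region around the first, chr4:49657490-49657815, was called in KO replicate 1 at a −log10 q of 15.1 and in KO replicate 3 at 33.2, the latter the only peak among all members to stand above the 50th percentile of its list. KO replicate 2 and the 3 WT lists had no peak there. The region chr10:41858232-41858543 was called in KO replicates 2 and 3, at 4.00 and 4.17.

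The highest-ranked region called in all 3 KO libraries was of another kind. It lay in the reference model of the chromosome 17 centromere, with no 5′ end of an annotated gene within 1 Mb, and is shown whole on the plus strand of GRCh38 with CpG dinucleotides in capitals.
chr17:25074338-25074598: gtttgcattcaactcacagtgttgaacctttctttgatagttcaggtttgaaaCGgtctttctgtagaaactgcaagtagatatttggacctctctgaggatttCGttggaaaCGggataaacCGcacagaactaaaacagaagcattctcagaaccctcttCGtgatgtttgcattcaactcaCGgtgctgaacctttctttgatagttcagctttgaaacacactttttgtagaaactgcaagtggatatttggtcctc

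The opening bases of this sequence return after 168 bases, where 90.3% of the 93 bases compared were identical. That spacing is close to the unit of alpha satellite, the main DNA of human centromeres. All of its 36-base words (36-mers) occurred more than once in the reference, and the authors had removed reads that map to several places. The 3 KO peaks were 234, 233 and 261 bp wide with −log10 q of 11.4, 12.2 and 17.5, at percentiles 33.3, 31.7 and 38.0 of their lists. In none of the 3 WT lists was there a peak within 1 Mb.

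Almost all KO-favouring peaks were weak and short. Peaks were ranked within each list by their −log10 p, and a percentile near 0 means a peak just over the peak caller's threshold. The peaks behind the KO-favouring regions had median percentiles of 11.6, 5.96 and 9.40 in KO replicates 1, 2 and 3. In each list they crowded at the bottom, with 44.7%, 70.6% and 52.8% of them below the 10th percentile. Their median −log10 q was 3.10, 2.23 and 2.15, where the whole lists had medians of 30.7, 30.8 and 32.3. Fold enrichment, the ChIP signal over local background that the peak caller gives, had medians of 3.22, 3.11 and 3.03 against 4.32, 4.60 and 4.65 for the whole lists. The merged regions had a median width of 665 bp (interquartile range 458.5 to 935.75, lowest 241, highest 3376), against 1596 bp over all regions.

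**Figure D1:**
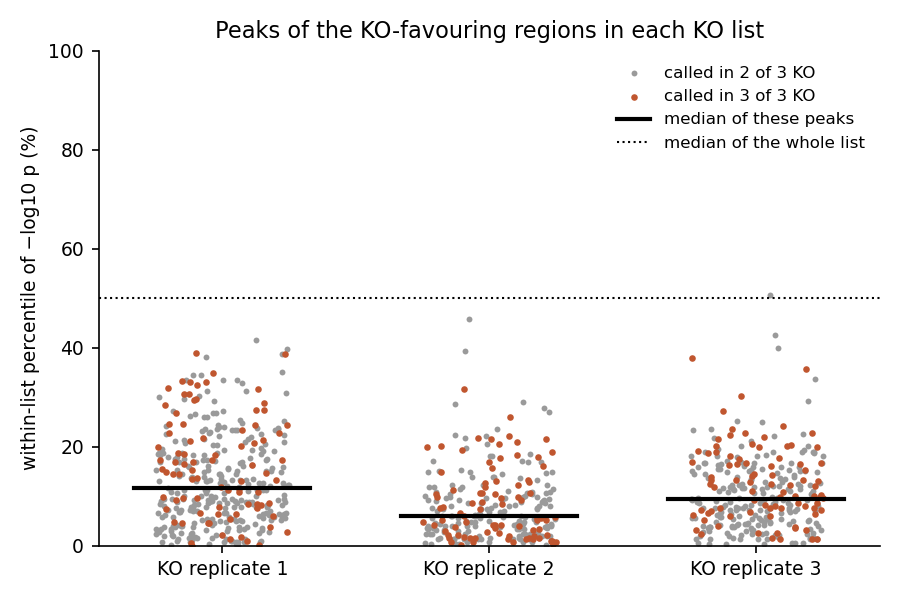
Each point is the peak of 1 KO-favouring region in 1 KO list, placed on the y axis by its percentile of −log10 p within that list (0 to 100%), grey for regions called in 2 and orange for regions called in 3 KO libraries. Black bars mark the medians of 11.6, 5.96 and 9.40, and 1 point stands above the dotted line at 50.

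Weakness was shared with the sets that do not favour KO. A region's lowest percentile over the lists that called it had a median of 4.98 in the KO-favouring set, 6.10 in the WT-favouring set and 5.76 in the set of both genotypes, against 24.8 over all regions. Only 93 of the 438 regions had a −log10 q of at least 3 in at least 2 KO lists, and 14 had it in all 3. The 85 regions called in all 3 KO libraries had a median width of 807 bp, against 621 bp for those called in 2.

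The clones did not contribute equally. KO replicate 1 called 385 of the 438 (87.9%), KO replicate 3 called 307 (70.1%) and KO replicate 2 called 269 (61.4%). KO replicates 1 and 3 without 2 gave 169 regions, replicates 1 and 2 without 3 gave 131, and replicates 2 and 3 without 1 gave 53. The list of KO replicate 1 was the longest, with 26370 peaks against 21712 and 21963 in the other KO lists and 22446, 22784 and 24474 in the WT lists, so its larger part goes with a longer list, and the part of list length was not tested. Read against their own pattern, the shares turn: of the 250 regions called in KO replicates 2 and 3 but not 1, 21.2% had no WT peak, against 17.7% of 957 for replicates 1 and 3 and 10.5% of 1252 for replicates 1 and 2. Of the 19049 regions called in all 3 KO libraries, 0.446% had none.

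Few KO-favouring regions lay at promoters. Within 1 kb of the 5′ end of a protein-coding gene there were 21 of 438 (4.79%, 95% Wilson interval 3.16 to 7.22, counting error only), against 7.46% of the WT-favouring regions, 5.38% of those of both genotypes and 39.5% of all regions. The counts moved with the size of the set. Without WT replicates 2 and 3 in turn there were 34 such promoters among 624 regions and 49 among 916. Without KO replicates 1, 2 and 3 there were 12 among 137, 12 among 254 and 7 among 214. Another 30 regions lay at promoters of other genes, 24 of them lncRNA genes, 72 touched an exon, 151 an intron and 164 (37.4%) were intergenic. Without WT replicate 3 there were 343 intergenic regions among 916. Without KO replicates 1, 2 and 3 there were 50 among 137, 99 among 254 and 80 among 214. The intergenic share was 31.1% in the WT-favouring set, 37.7% in the set of both genotypes and 21.4% over all regions. The location of the KO-favouring regions was thus close to that of weak regions that did not follow genotype. Their median distance to the nearest protein-coding 5′ end was 43.5 kb, against 37.1 kb, 58.2 kb and 12.3 kb in the same order.

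**Figure D2:**
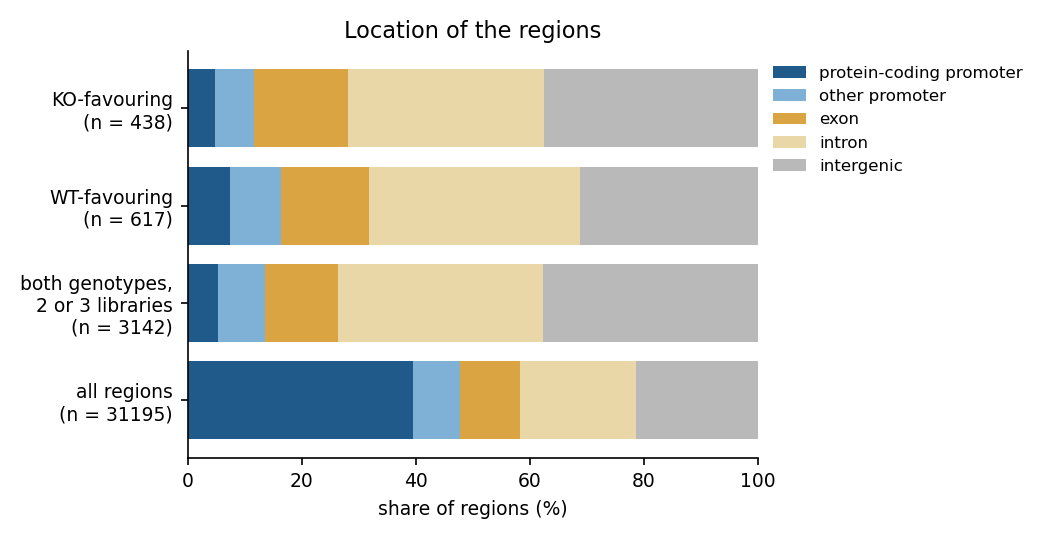
Bars give the share of regions (%) by location for the KO-favouring, WT-favouring and mixed sets and for all regions, with the number of regions in brackets. Promoters of protein-coding genes make up 4.79% of the KO-favouring bar and 39.5% of the bar for all regions.

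The 5 promoters called in all 3 KO libraries belonged to PTH2, MROH5, GPR26, TERT and CPLX3. PTH2 encodes a neuropeptide, GPR26 an orphan G protein-coupled receptor, TERT the catalytic subunit of telomerase and CPLX3 a complexin of retinal synapses. At PTH2 (ENSG00000142538, chr19:49422210-49422983) the KO peaks stood at percentiles 24.6, 25.9 and 14.0 of their lists, and WT peaks lay 2445, 2846 and 2897 bp away. PTH2 ranked highest of the 5 by −log10 p. By fold enrichment its lowest percentile was 5.59, below GPR26 (13.7), TERT (10.2) and CPLX3 (7.36) and above MROH5 (4.79).

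At TERT (ENSG00000164362) the region chr5:1294081-1295046 began 22 bp downstream of the 5′ end, on the transcribed side. Its KO peaks were 966, 247 and 289 bp wide and had −log10 q of 3.02, 1.92 and 1.97, percentiles 11.3, 3.90 and 8.03. The nearest WT peaks were 23396, 27626 and 28164 bp away. These values put TERT among the faintest of peaks in all 3 KO clones. GC made up 75.7% of the region.

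At GPR26 (chr10:123665935-123667804) the −log10 q was 5.93, 2.32 and 3.06 in KO replicates 1, 2 and 3. At CPLX3 (chr15:74826238-74826757) it was 1.71, 3.48 and 3.41 in the same order. MROH5 had 9.63, 4.21 and 2.05. A single KO library therefore carried the stronger peak at MROH5, while CPLX3 was weakest in that same library.

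Ranked by the lowest percentile over the lists that called them, the first 3 promoters were CNIH2, LIF and SHOX, called in KO replicates 2 and 3 but not in KO replicate 1. Single peaks of KO replicate 1 ranked above those of SHOX, at percentile 31.3 at CALCB and 30.6 at MROH5. CNIH2 encodes an auxiliary subunit of AMPA-type glutamate receptors. Its region, chr11:66277941-66279226, spanned the 5′ end and reached −log10 q of 19.4 and 19.8, percentiles 39.4 and 39.9. WT peaks lay 6718, 7251 and 8192 bp off. The 200 bases upstream of the CNIH2 5′ end are inside the region and are given in the direction of the gene, with their 31 CpG dinucleotides in capitals.
chr11:66277975-66278174: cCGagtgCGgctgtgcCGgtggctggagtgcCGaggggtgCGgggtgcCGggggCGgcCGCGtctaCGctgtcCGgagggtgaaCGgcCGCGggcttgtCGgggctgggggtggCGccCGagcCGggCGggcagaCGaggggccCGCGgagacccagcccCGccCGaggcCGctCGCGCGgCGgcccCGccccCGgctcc

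LIF encodes leukaemia inhibitory factor, a cytokine of the interleukin-6 family. Its region, chr22:30244835-30247445, was 2611 bp wide and also spanned the 5′ end and that of the antisense lncRNA LIF-AS2. The −log10 q was 9.85 in KO replicate 2 and 13.1 in KO replicate 3, at percentiles 28.5 and 33.6. Fold enrichment was 2.71 and 2.97 in the same order, with a lowest percentile of 4.07, so the high rank of LIF rests on −log10 p. WT peaks lay 3216, 3832 and 5751 bp away. A smaller region, chr22:30232849-30233250, lay 13509 bp from the LIF 5′ end and was called in KO replicates 1 and 2, at 1.97 and 3.28. The pair shows both a broad peak over the promoter and a faint one downstream, with KO replicate 2 the only library to call both.

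SHOX, a homeobox gene of long bone growth, had 2 KO-favouring regions. That at the 5′ end, chrX:630153-631506, reached −log10 q of 6.52 and 6.66 in KO replicates 2 and 3 and percentiles 22.4 and 25.1. The second, chrX:635578-635993, lay in the gene 4787 bp from the 5′ end and was called in KO replicates 1 and 3, at 2.11 and 3.26. SHOX lies in the pseudoautosomal region, and all 36-mers of the first region occurred more than once in the reference. Its placement on X rather than Y is thus that of the authors' alignment.

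Other promoters called in 2 KO libraries, in falling order of rank, were those of F13A1 (coagulation factor XIII), LRRC17, CALCB (a calcitonin gene-related peptide), LDHD (D-lactate dehydrogenase), C2 (complement component 2), APOB (apolipoprotein B), TXLNB, AIM2 and ALOX15 (a lipoxygenase), with lowest percentiles from 15.1 at F13A1 to 3.49 at ALOX15. AIM2, a sensor of cytosolic DNA, was called in KO replicates 2 and 3 at −log10 q of 2.06 and 1.47. The remaining 4, also called in 2 KO libraries and ranked lower still, were PTGES, NCAN, DUSP13 and MCHR1. Genes of brain, liver and blood stand side by side in this list, and no test of a shared function was run.

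Among gene lists, no KO-favouring region touched the promoter or body of any of 5 ZBTB48 targets (CIITA, MTFP1, VWA5A, PXMP2 and SNX15), of 14 MHC class II genes or of 21 interferon-response genes. The 21 are a chosen list and do not cover every gene that responds to interferon. WT-favouring regions touched 5 of the 14 MHC class II genes. Over all 20033 protein-coding genes, 206 (1.03%) were touched by a KO-favouring region and 321 by a WT-favouring one. At a share of 1.03%, lists as short as these would often hold no touched gene. Gene families were close to that share or had few members touched: 4 of 373 solute carriers (SLC22A18, SLC4A10, SLC8A1 and SLC9A3), 3 of 96 potassium channel genes (KCNIP2, KCNN3 and KCNT1), 2 of 508 ZNF genes (ZNF34 and ZNF536), 2 of 44 collagens (COL20A1 and COL22A1), 1 of 23 cadherins (CDH22) and 1 of 8 LHX genes (LHX3). No HOX, SOX, FOX, PAX, TBX, protocadherin, olfactory receptor or keratin gene was touched. The background share of each is set by gene length as well as number.

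Inside genes, 171 regions lay in the bodies of 164 protein-coding genes. The host gene's own promoter was called in all 6 libraries for 62% of these regions and in none for 31.6%. For WT-favouring regions the shares were 74.0% and 21.1%, for regions of both genotypes 71.8% and 22%, and over all protein-coding promoters 65.1% and 30.3%. KO-favouring regions in genes were therefore found in hosts with an unmarked promoter more often by count than the WT-favouring regions were, and at about the share of promoters in general. Genes overlapped by 2 KO-favouring regions, promoter regions counted as well, included L3MBTL4, MAD1L1, NOX5, PEBP4, RADIL, RYR1, SHOX and SLC8A1.

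Of the 8 highest-ranked regions called in all 3 KO libraries, the second lay 1279 bp upstream of C1QC, a chain of complement C1q, at chr1:22641518-22642354. Its −log10 q was 10.8, 5.76 and 5.06 in KO replicates 1 to 3, its percentiles were 32.5, 20.5 and 21.5, and the nearest WT peak lay 40416 bp away. The central 300 bases held 2 copies of the telomeric hexamer TTAGGG, 1 in each orientation, which are in capitals.
chr1:22641786-22642085: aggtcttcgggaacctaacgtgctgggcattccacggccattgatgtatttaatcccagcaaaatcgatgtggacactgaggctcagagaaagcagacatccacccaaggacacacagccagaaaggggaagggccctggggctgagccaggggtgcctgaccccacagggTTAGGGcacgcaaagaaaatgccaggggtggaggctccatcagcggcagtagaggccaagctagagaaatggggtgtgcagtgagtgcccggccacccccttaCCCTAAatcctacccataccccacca

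The third, chr7:154304544-154305525, lay in DPP6, which encodes an auxiliary subunit of potassium channels, 252146 bp from the 5′ end of its canonical transcript. The KO peaks had −log10 q of 8.91, 5.51 and 4.55, and the nearest WT peak lay 416162 bp away. The others were in introns of C10orf143 and HIP1, in an exon of a gene that codes for no protein, 421516 bp from VRK1, in a gene desert 923408 bp from NCAM2, and at PTH2. The 8 regions stood between percentiles 14.0 and 38.7 of their KO lists. Ranking by fold enrichment in place of −log10 p kept 6 of the 8.

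Of the 5 widest regions, that at LIF was the fourth at 2611 bp and had −log10 q of 9.85 and 13.1, higher than any peak of the other 4. The region chr18:59709774-59713149 beside CCBE1 was 3376 bp wide, through a KO replicate 3 peak of 3322 bp with −log10 q of 3.21. Regions in MGAT5 (3072 bp) and HJURP (2396 bp), the latter a chaperone of the centromeric histone CENP-A, were called at −log10 q of at most 3.32. The region chr4:54165111-54167769, 61524 bp from PDGFRA, was 2659 bp wide, was called in all 3 KO libraries at 4.04, 2.20 and 7.92, and held 3 telomeric hexamers, the most of any member and a number that 4 members reached.

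Binding motifs were counted in the reference sequence. Within the central 300 bases, on both strands, TTAGGG was found in 9.59% of KO-favouring regions and in 9.34% of all regions, and 2 copies in tandem in none of the 438. The interferon-stimulated response element (ISRE) was found in 6.39% against 5.89%, CCAAT in 25.8% against 26.4% and CACGTG in 6.62% against 4.90%. In the set of both genotypes the shares of these 3 were 9.23%, 30.3% and 4.90%. In WT-favouring regions they were 9.72%, 31.1% and 3.89%. Against these weak sets the KO-favouring share was lower for ISRE and CCAAT and higher for CACGTG, and the differences were not tested. These are matches of letters in the reference, not measured binding.

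Base composition varied between the sets. KO-favouring regions had a median GC content of 53.0%, against 45.7% for WT-favouring regions, 48.4% for those of both genotypes and 51.2% over all regions, while their ratio of observed to expected CpG, 0.317, was as low as in the other weak sets (0.331 and 0.337). The members were chosen on the calls of these same libraries, so the difference was looked at again in regions that the rule left out. Among regions called in 1 library alone, the median GC was 47.6%, 44.1% and 48.1% for WT replicates 1 to 3 and 52.2%, 50.6% and 50.7% for KO replicates 1 to 3. The groups did not overlap, and the WT mean was 46.6% ± 2.18 (SD, n = 3) and the KO mean 51.2% ± 0.887 (SD, n = 3) (two-sided exact permutation p = 0.1, the smallest that 3 against 3 allow). Like the members, regions called in 1 library alone have no call in the other genotype. Over all regions that each library called, the medians lay much closer together. They were 51.66%, 51.36% and 51.60% in WT replicates 1 to 3 and 51.74%, 52.03% and 52.21% in KO replicates 1 to 3. The GC difference was thus seen outside the set mainly in regions called in 1 library, and the part of GC content in the choice of the members was not tested.

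**Figure D3:**
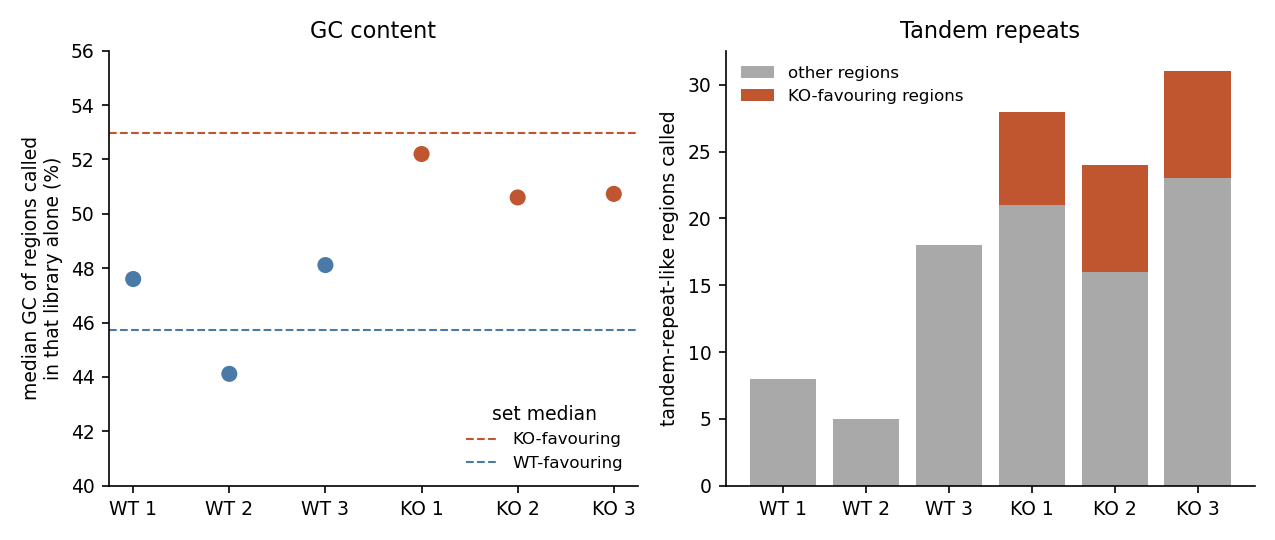
Left, the median GC content (%) of the regions called in that library alone, 1 point per library, with dashed lines at the medians of the KO-favouring (53.0%) and WT-favouring (45.7%) sets, on an axis that starts at 40%. Right, the number of tandem-repeat-like regions called in each library, with the KO-favouring ones in orange, from 5 in WT replicate 2 to 31 in KO replicate 3.

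Tandem repeats were counted from the reference, as regions whose 2 kb around the midpoint matched themselves at 60% or more of bases when shifted by 1 to 400 bases. Of the KO-favouring regions 10 (2.28%, 95% Wilson interval 1.25 to 4.15) met this, against 1 of 617 WT-favouring regions (0.162%), 8 of 3142 of both genotypes (0.255%) and 47 of all 31195 (0.151%). Just outside the rule, 9 of the 300 regions called in 3 KO libraries and 1 WT library met it. So did 3 of the 555 called in 2 KO libraries and 1 WT library. The trait was thus not particular to the members. The best shift was 5 bases in 7 of the 10 and a multiple of 5 in 9. Besides the 2 shown above they included regions at chr5:49666434-49667188, chr9:40928717-40929176 (at the microRNA gene MIR1299), chr10:41881895-41882340, chr19:27859860-27861711, chr20:31053563-31055618, chr20:31060452-31061776 and chrY:56833328-56835320. The 2 on chromosome 20 and that on chromosome 19 were called in all 3 KO libraries. WT replicate 3 had a peak 36 bp from chr10:41881895-41882340, 1129 bp from the chromosome Y region and 4584 bp from the chromosome 5 region. Its nearest peaks to the chromosome 9 and 19 regions lay 62370 and 65077 bp away.

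The 2 chromosome 20 regions lay 4833 bp apart beside the centromere. The first had −log10 q of 2.25, 6.15 and 4.11 and the second 3.44, 6.27 and 3.45 in KO replicates 1 to 3. WT replicate 3 had a peak 12413 bp from the first and 6255 bp from the second, while the nearest peaks of WT replicates 1 and 2 lay between 205394 and 212308 bp away. WT replicate 3 called the neighbourhood without calling these regions. Over all regions, tandem-repeat-like ones were called 8, 5 and 18 times in WT and 28, 24 and 31 times in KO. With the KO-favouring members left out the KO counts were 21, 16 and 23, so that WT replicate 3 lay within the KO range (two-sided exact permutation p = 0.2).

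The lists of WT replicates 1 and 2 were of another kind than the remaining 4. Their median fold enrichment was 13.4 and 14.0 and their median peak width 2297 and 2353 bp, against 4.19 to 4.65 and 1275 to 1487 bp in WT replicate 3 and the 3 KO lists. With WT replicate 3 as the only WT library, 11 tandem-repeat-like regions favoured KO, and without it 22 did. Without KO replicates 1, 2 and 3 there were 6, 5 and 5. With peaks of a fold enrichment of at least 4 alone, 1 was left.

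Along the chromosomes, the members were uneven. They made up 24.3 of every 1000 regions on chromosome 7, 22.4 on chromosome 8, 22.1 on chromosome 22 and 21.99 on chromosome 15, against 14.0 on all chromosomes together, 5.90 on chromosome 16 and 3.26 on X. Within 1 Mb of a chromosome end lay 23 (5.25%), against 2.43% of WT-favouring regions, 2.61% of those of both genotypes and 3.07% of all regions. The regions called in KO replicates 2 and 3 alone had the highest share, 11.3% of 53. Among regions called in 1 library alone, which the rule left out, the share was 2.94%, 1.62% and 2.31% in WT replicates 1 to 3. It was 3.63%, 2.91% and 3.56% in KO replicates 1 to 3, and the groups overlapped (two-sided exact permutation p = 0.2). The member nearest to an end was chr8:145068916-145069463, 69173 bp from it and beside C8orf33. After it came chr18:80262277-80262717, 110568 bp from its end and beside PARD6G, and chr13:114156362-114157448 in CFAP97D2, 206880 bp from its end.

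Cut into bins of 5 Mb, 602 bins held a region and 364 of them no KO-favouring one. The 21 bins with 4 or more KO-favouring regions held 27.2% of the members and 7.69% of all regions. These bins were picked for holding many members, so a member share above the share of all regions follows from the choice. The fullest was the first 5 Mb of chromosome 7, with 18 KO-favouring among 229 regions (7.86%) and 2 WT-favouring (0.873%). Next came 25 to 30 Mb on chromosome 19 with 8 of 68 (11.8%), the first 5 Mb of chromosome 5 with 7 of 111 (6.31%), 140 to 145 Mb on chromosome 8 with 7 of 216 (3.24%) and 65 to 70 Mb on chromosome 15 with 6 of 106 (5.66%). The bin at 30 to 35 Mb on chromosome 6, which holds the MHC, tied with the last at 6 KO-favouring regions, with 6 WT-favouring ones among its 162 regions, and came after it by share (3.70%), so that it was not among the 5 bins examined further. No bin held more than 9 WT-favouring regions. Of the promoters called in all 3 KO libraries, that of TERT lay in the chromosome 5 bin and that of MROH5 in the chromosome 8 bin. Without KO replicate 1 the chromosome 7 bin held 4 KO-favouring regions, without KO replicate 3 it held 10, and without WT replicate 3 it held 30. It held 7 with peaks of −log10 q of at least 3 and 2 with peaks of a fold enrichment of at least 4.

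**Figure D4:**
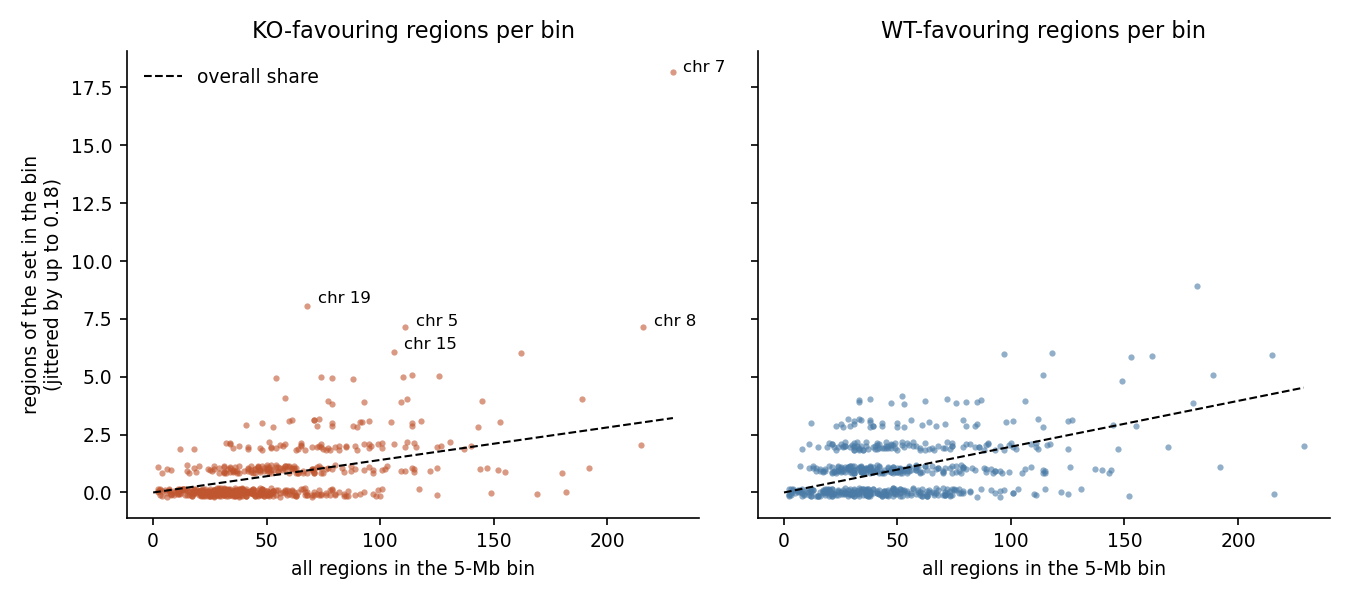
Each point is 1 of 602 bins of 5 Mb, with all its regions on the x axis and its KO-favouring (left) or WT-favouring (right) regions on the y axis, jittered for display. The dashed line is the share of the set over all bins, and the labelled chromosome 7 bin holds 18 KO-favouring regions among 229.

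The 18 chromosome 7 regions ran from FAM20C to RADIL through PRKAR1B, ADAP1, C7orf50, ELFN1, MAD1L1, SNX8, AMZ1 and SDK1, and none was at a protein-coding promoter. KO replicate 1 called all 18, KO replicate 2 called 10 and KO replicate 3 called 13, and 5 were shared by all 3. MAD1L1, which encodes a mitotic checkpoint protein, held 2 of them. Within this stretch chr7:1716300-1874472 held 3 regions less than 100 kb apart, at ELFN1 and MAD1L1. The only other group of 3 was chr19:29771644-29919133, around CCNE1, which encodes cyclin E1, and URI1. In all, 7 of the 8 KO-favouring regions of the chromosome 19 bin lay between UQCRFS1 and URI1.

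Regions called in 1 library alone, which the rule did not use, were counted in the same 5 bins. In the chromosome 7 bin there were 3, 0 and 2 in WT and 47, 18 and 31 in KO, or 0.588%, 0% and 0.140% of such regions in WT and 2.37%, 4.37% and 3.07% in KO. In the chromosome 8 bin the shares were 0.392%, 0% and 0.559% in WT and 2.02%, 4.37% and 2.28% in KO, and in the chromosome 19 bin 0.196%, 0% and 0% against 0.504%, 2.91% and 1.49%. In these 3 bins every KO library lay above every WT library (two-sided exact permutation p = 0.1 each, the smallest possible, adjusted p = 0.167 over the 5 bins). On chromosomes 5 and 15 the libraries overlapped (exact permutation p = 0.3 and 0.2). The bins were picked for their number of KO-favouring regions and so are not a random choice. On peaks with a fold enrichment of at least 4 the chromosome 7 difference turned, from 3.03 percentage points higher in KO to -0.297, and on peaks with −log10 q of at least 3 it was 0.286. The cut at 4 does not fall equally on the lists. It lies near the median fold enrichment of WT replicate 3 and the KO lists, 4.19 to 4.65, while WT replicates 1 and 2 had medians of 13.4 and 14.0.

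Regions called in all 6 libraries, which the rule also left out, moved the same way in the chromosome 7 and chromosome 19 bins. The 63 such regions of the chromosome 7 bin had median within-list percentiles of 65.3, 71.2 and 62.9 in WT and 94.5, 74.5 and 77.9 in KO. The 15 of the chromosome 19 bin had 89.1, 91.0 and 75.7 in WT and 96.8, 98.5 and 97.8 in KO. Both sets of KO values lay above all WT values (two-sided exact permutation p = 0.1, adjusted p = 0.25 over the 5 bins). Over all regions called in all 6, the medians were 60.04, 60.6 and 63.2 in WT and 65.9, 58.4 and 59.0 in KO. In the chromosome 5, 8 and 15 bins the WT and KO values overlapped (exact permutation p = 0.4, 0.2 and 0.8). In these 2 bins the KO lists thus ranked higher at regions called in all libraries as well as at faint ones. Copy number along the genome was not analysed here.

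**Figure D5:**
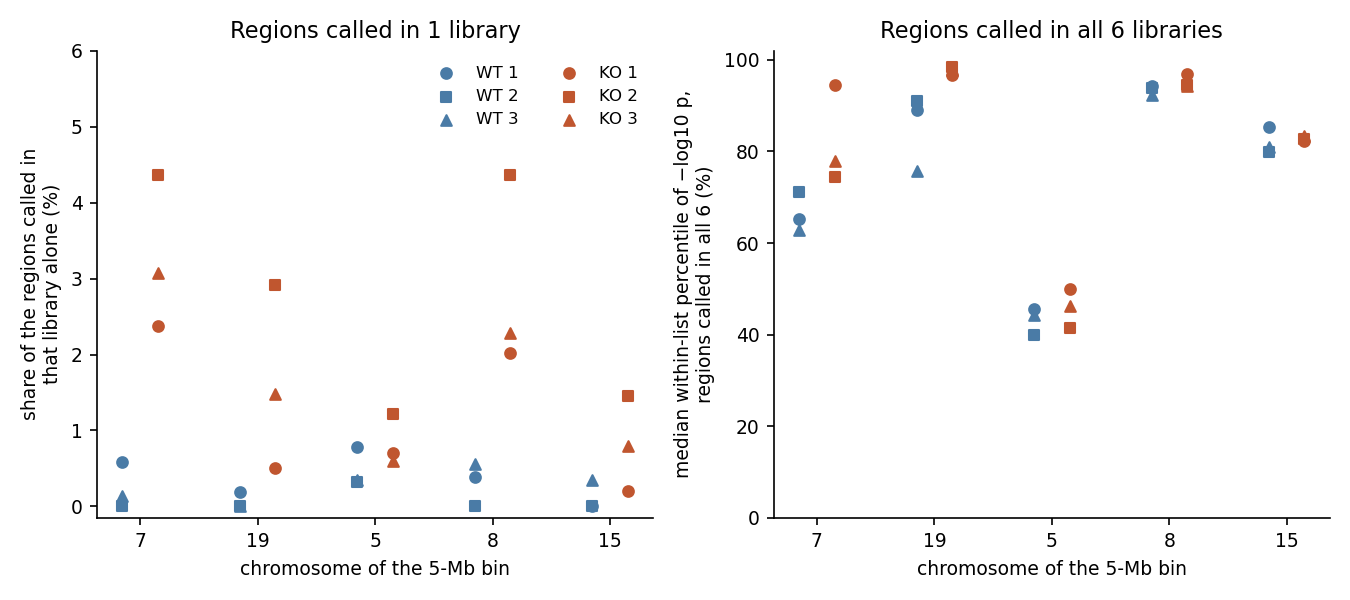
For the 5-Mb bins with most KO-favouring regions, named by chromosome on the x axis, the left panel gives the share (%) of the regions called in 1 library alone that fell in the bin and the right panel the median within-list percentile of −log10 p of regions called in all 6. Points are libraries (WT blue, KO orange), and in the chromosome 7 and 19 bins all KO points lie above all WT points in both panels.

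Clustering at short range was modest. Within 100 kb of another member lay 48 regions (11.0%), in 23 groups, against 8.43% for the WT-favouring regions among themselves and 27.2% in the larger set of both genotypes. Leaving out WT replicates 1, 2 and 3 gave 86, 73 and 184 such regions, and leaving out KO replicates 1, 2 and 3 gave 10, 15 and 14. Pairs lay at RYR1, SMAD3, SYN3, L3MBTL4, SHOX and LIF. Touching peaks were merged, so the rule itself leaves out any region that adjoins a WT peak. The median distance of a member to the nearest WT peak was 21.9 kb. Within 1 kb of a WT peak lay 4 members (0.913%), and 3 WT-favouring regions (0.486%) lay within 1 kb of a KO peak. Within 10 kb lay 112 members (25.6%), whereas 39.9% of WT-favouring regions lay within 10 kb of a KO peak.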

How the data were processed

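H3K4me3 ChIP-seq was carried out on 3 WT and 3 ZBTB48 KO U2OS clones under IFNγ. The authors' reads had been trimmed (Trimmomatic) and aligned to GRCh38 (Bowtie2 2.3.5.1), with duplicates and reads that were unmapped or mapped to several places dropped. MACS2 2.1.1.2 then gave 1 list of broad peaks per library, with a q cut-off of 0.05 by the study's methods. Some listed peaks had a q above it, as at the member in C1orf21 with a −log10 q of 1.23 in KO replicate 3. Per the labels, DiffBind 3.2.1 and deepTools 3.5.0 were also used. Each deposited list gives an integer display score, unused here, and the fold enrichment ratio and −log10 p and −log10 q, averaged over a peak by the authors' caller. The deposited lists hold no read counts, so no counting interval on a peak was computed. The study's methods give a range of sequenced reads over the samples and no value per library. A missing peak was not called at that library's threshold, which is weaker than absence.

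Touching peaks of the 6 lists were merged. Genes came from GENCODE release 44, and a promoter region lay within 1 kb of the start of a gene's MANE Select (otherwise canonical) transcript. Intergenic regions overlapped no annotated gene. Sequence features and printed sequences were read from GRCh38. Sequences over 5′ exons were left out. Some regions, genes and motifs are not reported here. Members, lists, bins and added comparisons were chosen with earlier results of these data known. Named regions were the 8 highest-ranked in 3 of 3 KO, promoter regions, the 5 widest, groups of 3, those with most telomeric hexamers and those nearest an end. Genes and satellite regions outside this rule were named after their values were seen. The p-values are two-sided exact permutation tests over 6 libraries, of values in regions the rule did not use, adjusted by Benjamini-Hochberg over 5 bins. They cover the spread between clones. Any 2 lists had at most 2 peaks with equal coordinates. The rule and the repeat score were tested on simulated lists and sequences. Python 3.11.15, numpy 2.4.6, pandas 2.3.3, numba 0.67.0 and matplotlib 3.10.9 were used.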

Additional observations from a re-analysis of the deposited data

Results flagged for a closer look

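Peaks on unplaced and unlocalised sequence of GRCh38 lay outside every comparison of the report. There, 9 of 76 regions (11.8%) were called in at least 2 of 3 KO and 0 of 3 WT libraries and 0 in the reverse direction, and 16 were called in all 6. This is a signal in data that the comparisons did not use, above the level in the WT libraries. The number of peaks on such sequence was 29, 18 and 44 in WT replicates 1 to 3 and 54, 47 and 53 in KO replicates 1 to 3, a mean of 30.3 ± 13.1 (SD, n = 3) against 51.3 ± 3.79 (SD, n = 3). The groups did not overlap (two-sided exact permutation p = 0.1, the smallest possible), and WT replicate 3 stood nearest to the KO libraries. The KO counts hold the peaks of those 9 regions, which were chosen for having no WT call. A count without them was not made, so the test does not show a difference outside the chosen regions. Many sequences of this kind are repeats without a fixed place on a chromosome.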

How the results depend on the processing

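The number of KO-favouring regions, 438, was 272 with −log10 q of at least 3, 201 with fold enrichment of at least 4, 85 when all 3 KO libraries had to call a region, 1271 with WT replicate 3 as the only WT library, and 137 to 916 with 1 library left out. Regions at protein-coding promoters, 21, numbered 5 in all 3 KO libraries, 99 with WT replicate 3 alone, 52 when the 5′ end of any annotated transcript counted, and 7 to 49 with 1 library left out. Tandem-repeat-like regions, 10, numbered 1 with fold enrichment of at least 4, 3 in all 3 KO libraries, and 5 to 22 with 1 library left out. Intergenic regions, 164, numbered 108, 70, 33 and 455 under the 4 settings first named, and 50 to 343 with 1 library left out. An equal number of peaks per list, coverage of at least 50%, merging within 1000 bp and autosomes only left these 4 counts within 1.5 times. Regions within 100 kb of another, 48, ranged from 10 to 184 with 1 library left out.

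The KO excess in median GC of regions called in 1 library, 4.57 percentage points, stayed positive under all 13 alternatives, with 2.79 to 5.34 when a library was left out. These alternatives and that comparison were chosen after seeing the data. With the replicate number as a block it was 4.57 (exact sign-flip permutation p = 0.25, the smallest possible), and the numbers mark no shared origin. The excess in the first 5 Mb of chromosome 7 kept its sign in 11 of 12 alternatives but fell from 3.03 percentage points to 0.286 with −log10 q of at least 3, and was -0.297 with fold enrichment of at least 4. That cut on fold enrichment falls unequally on the lists, whose medians differ. The causes were not tested. The lists hold no reads, so how far more reads would add WT peaks at these regions was not tested.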
